A study of Mus musculus with 4 samples.

Results

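DNA replication genes were read in the transcriptome of LSK cells, the lineage-negative, Sca-1-positive and c-Kit-positive bone marrow fraction that holds blood stem cells and multipotent progenitors. The set has 42 genes, given as a list of symbols, and a probe belonged to it when its gene name in the array files was one of those symbols or an older or newer symbol of the same gene. All 42 genes were on the array, with 57 probes, of 22563 named genes and 55681 probes in all. Of these genes, 30 had 1 probe, 9 had 2 and 3 had 3. The symbols Gins4 and Gem, which the RefSeq gene table also lists as synonyms of Gins1 and Gmnn, belong here to other genes and were not counted.

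Replication starts where origin recognition proteins, Cdc6 and Cdt1 load the ring of MCM proteins on DNA, and it fires when kinases, Mcm10 and the GINS complex turn that ring into a moving helicase. Behind the helicase, RPA coats the single strands, the polymerase alpha and primase complex lays down primers, and polymerases delta and epsilon extend them on the sliding clamp PCNA, which the RFC complex loads. Most of these genes are transcribed ahead of and during S phase under E2F factors, and in bone marrow most stem cells rest while their progenitors divide, so that the level of such genes is commonly read as a sign of cycling.

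Lethally irradiated mice received E14.5 fetal liver cells of 1 of 4 genotypes, all labelled with the C57B6 background, and LSK cells were sorted from the bone marrow of the recipients. The genotypes were wild type (WT), TET2KD (knocked down for the 5-methylcytosine oxidase TET2), JAK2V617F (a transgene for the activated kinase of myeloproliferative neoplasms) and the double mutant that carries both. Recipients of WT and of JAK2V617F cells were sampled at 16 weeks, those of TET2KD cells at 10 weeks and those of double mutant cells at 13 weeks, with 5 mice a genotype. There was 1 array for each genotype. Whether the 5 mice were pooled, and which promoter drives the transgene or how the knock-down was made, is not given in the sources used here. Only WT and JAK2V617F share a time, so in every other comparison the genotype and the time after transplantation cannot be told apart.

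The arrays carried 1 colour, and levels are given as scaled signal, the background-corrected signal divided by the 75th percentile of the same array, so that 1 is the level of the 75th percentile. Where 4 levels stand in a row they follow the order WT, TET2KD, JAK2V617F, double mutant, the last written as "with both". That percentile lay between 119.8 (TET2KD) and 143.5 (double mutant), and 49.4% to 54.7% of spots were well above background. With 1 array a genotype no difference has a replicate check, "higher" and "lower" describe these arrays, and a comparison of 2 arrays has no p-value. Spots of the same probe repeated on an array differed with an SD of 0.153 to 0.165 on the log2 scale, which puts the 95% range of spot error between 2 arrays at 1.35-fold to 1.37-fold. This range leaves out the spread between animals, sorts and amplifications. Of the gate genes Kit, Ly6a, Cd34, Flt3, Cd48 and Slamf1, 5 were above background on every array and Slamf1 on none, and of 7 further genes, of mature lineages or, as Ptprc, of blood cells at large, 4 were above background on every array: Cd3e (0.765 to 1.3), Itgam (4.69 to 7.75), Ly6g (0.162 to 0.435) and Ptprc (0.704 to 1.98).

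Marker genes of cell types within and beyond the gate differed between the arrays. The summed scaled signal of 15 granulocyte and monocyte progenitor genes came to 61.9 (WT), 107 (TET2KD), 208 (JAK2V617F) and 242 (double mutant). That of 14 stem cell genes was 64.1, 47.4, 32.6 and 20.7 in the same order. Both orders run with the JAK2V617F genotype. On the TET2KD array, mature neutrophil genes had a median log2 difference of 1.17 from WT (6 of 10 at least 2-fold higher) and erythroid genes one of 1.67 (5 of 8). Of all genes, 15.9% were at least 2-fold higher there. The erythroid genes Gata1 (4.54 in WT, 0.176 in TET2KD) and Car2 (14.7 and 9.15) were lower. In the double mutant against WT the medians were 0.69 (4 of 10) and 1.0 (5 of 10), against 15.3% of all genes. The part of these genes in the replication results was not tested. In bulk RNA, fewer cells of a type and less RNA per cell cannot be told apart.

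Of the 57 probes, 46 were well above background on all 4 arrays, 9 on 1 to 3 of them and 2, of Mcm8 and Dut, on none. A gene entered a comparison when at least 1 of its probes was well above background on 1 of the compared arrays, and all 42 did so in each comparison. A side that was not well above background was set to the array's lowest well-measured signal, or to its own signal if that was higher, and a fold that rests wholly on such a floor is written as "at least". Chaf1a, Pola2 and Tyms had no probe above background in WT. These genes entered each comparison with WT through the mutant side alone, so their place among the genes higher than WT was all but fixed. The shares given for all genes follow the same rule.

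Set against WT, the replication genes of the JAK2V617F array lay mostly higher and those of the TET2KD array mostly lower, by amounts that were small for most genes. In JAK2V617F, 27 of 42 genes were higher than in WT and 15 lower, against 49.4% higher among all genes compared, and the median difference was 0.38 on the log2 scale against -0.01 for all genes. In TET2KD, 13 were higher and 29 lower, against 47.6% higher among all genes, with a median of -0.28 against -0.05. The double mutant lay between them relative to WT, with 23 higher and 19 lower, against 49.4% higher of all genes, and a median of 0.19 against -0.01. That median was 0.09 with normexp background correction and 0.04 with only probes above background on both arrays.

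The double mutant was also set against each single mutant. Compared with TET2KD, 32 of 42 genes were higher in the double mutant and 10 lower, against 51.1% higher among all genes, with a median of 0.26 against 0.02. Compared with JAK2V617F, 15 were higher and 27 lower, against 48.7% higher among all genes, with a median of -0.08 against -0.02. Beyond the range of spot error, 20 genes were higher and 7 lower in JAK2V617F than in WT, where all genes had 30.1% higher and 30.7% lower. The same count was 20 higher and 6 lower for the double mutant against TET2KD (all genes 31.1% and 29.2%) and 8 higher and 16 lower for TET2KD against WT (all genes 30.7% and 33.2%).

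Differences of at least 2-fold were read against their share among all genes. In JAK2V617F against WT, 8 of 42 (19.0%) were at least 2-fold higher, where 15.5% of all genes were, and 3 (7.14%) were lower, where 15.7% were. In TET2KD against WT, 3 were higher (background 15.9%) and 8 lower (background 17.5%). The double mutant had 8 higher (background 15.3%) and 6 lower (background 16.6%) than WT, 8 higher (background 15.8%) and 2 lower (background 15.5%) than TET2KD, and 1 higher (background 12.3%) and 2 lower (background 12.7%) than JAK2V617F. With normexp background correction, which compresses low signals, the counts were smaller, with 3 higher and 1 lower in JAK2V617F than in WT. Pola2 and Chaf1a, with WT at the floor, are among the genes at least 2-fold higher in each comparison with WT. On the lower side in JAK2V617F and in the double mutant, Cdc6 and Chaf1b rest in part on a floor. The share of large differences was near or somewhat above that of all genes on the side where most replication genes lay, and below it on the other side; between the double mutant and JAK2V617F it was below it on both.

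**Figure D1:**
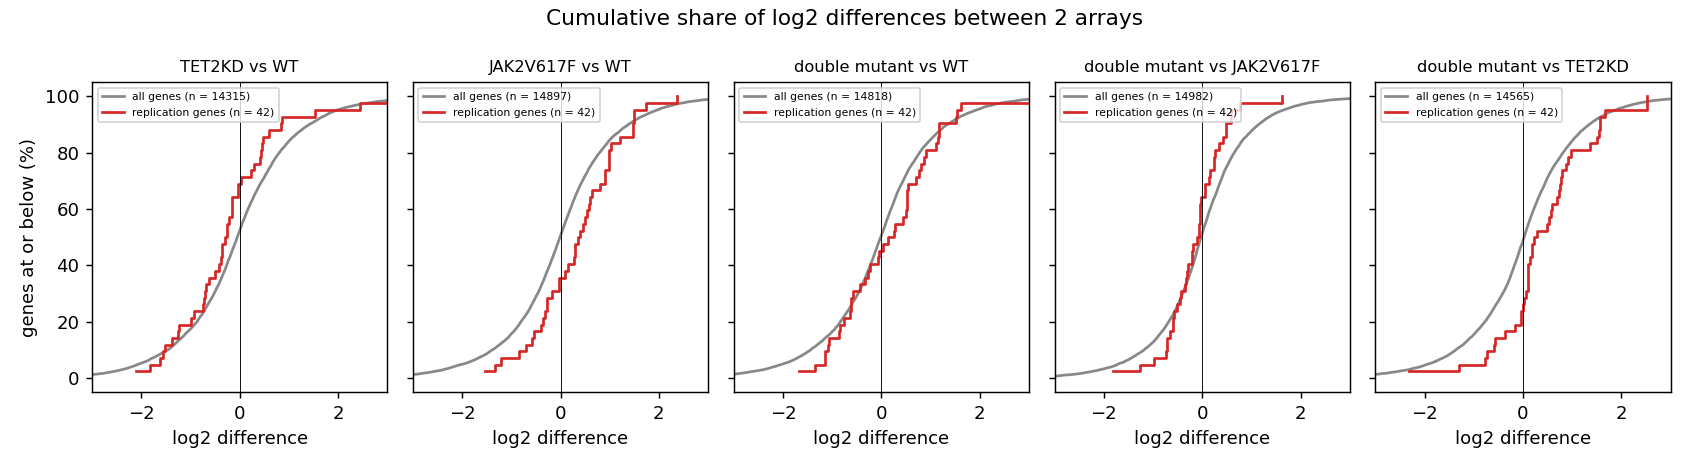
Cumulative share (%) of genes at or below each log2 difference, in 5 comparisons of 2 arrays, for the 42 replication genes (red) and all genes compared (grey); the x axis is drawn from -3 to 3. The red curve lies to the right of the grey one around 0 for JAK2V617F against WT (median 0.38) and for the double mutant against TET2KD (median 0.26), and to its left for TET2KD against WT (median -0.28).

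The comparisons of JAK2V617F with WT and of the double mutant with TET2KD share no array. Of the 42 genes, 21 (50%) were higher in both, where 27.7% of all genes were, 4 (9.52%) were lower in both, where 26.5% were, and 17 went opposite ways, where 45.8% did. Genes at least 2-fold higher in both were Mcm10, Pole2, Rrm2 and Chaf1a, which is 9.52% of the set against 4.02% of all genes, and 0 genes were 2-fold lower in both, against 3.77% of all genes. Of those higher, Chaf1a was not above background in WT and Mcm10 not well above it in TET2KD. The 4 genes lower in both by their averages were Cdc6, Gmnn, Gins3 and Rpa1, of which Cdc6 and Gins3 were within 1.03-fold between the double mutant and TET2KD, and Rpa1 had probes that went opposite ways there. The comparisons of TET2KD with WT and of the double mutant with JAK2V617F share no array either, and there 20 genes (47.6%) were lower in both, against 27.6% of all genes, 6 (14.3%) were higher in both, against 23.9%, and 16 went opposite ways, against 48.6%. Those 6 were Mcm4, Mcm5, Mcm7, Pola2, Tyms and Chaf1a, of which Chaf1a was at least 2-fold higher in both, as were 2.58% of all genes, and 0 genes were 2-fold lower in both, where 2.84% were.

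**Figure D2:**
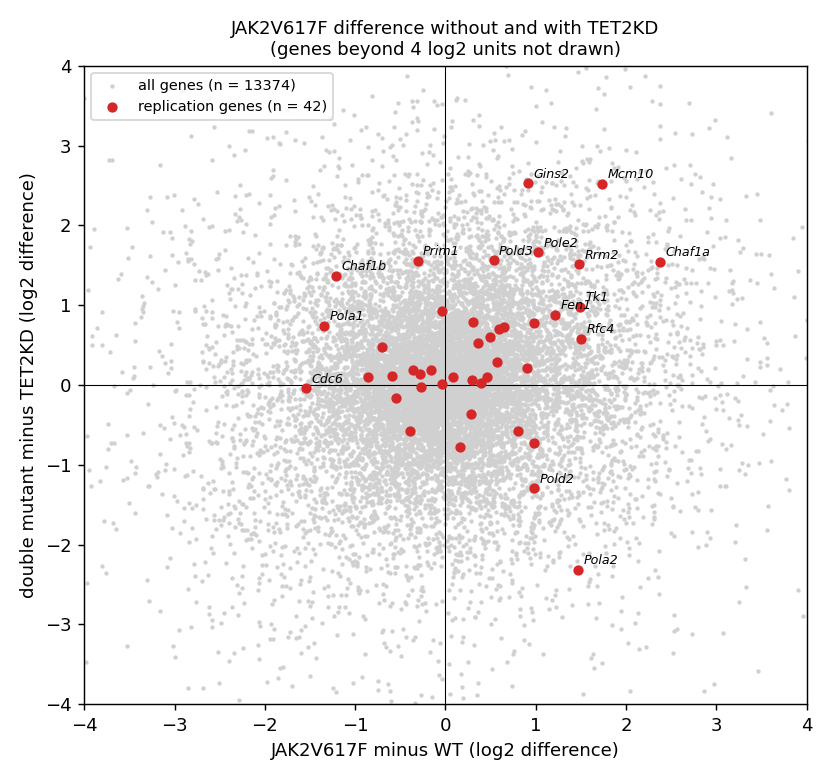
Log2 difference of JAK2V617F minus WT (x axis) and of the double mutant minus TET2KD (y axis) for the 42 replication genes (red, named where a difference is at least 2-fold) and for 13374 genes compared in both (grey). Of the red points, 21 lie right of and above 0 and 4 left of and below it.

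On 16 of the 42 genes (38.1%) both arrays that carry JAK2V617F were above both arrays that do not, where 16.2% of all genes showed this. They were Mcm3, Mcm5, Mcm6, Mcm7, Mcm10, Gins1, Gins2, Rfc4, Rpa3, Pole2, Rrm1, Rrm2, Tk1, Dut, Fen1 and Slbp. For several of them the gap between the lower array with JAK2V617F and the higher one without it was within spot error (0.43 to 0.45 on the log2 scale). These gaps were 0.03 for Mcm7, 0.11 for Mcm5, 0.14 for Rrm1, 0.22 for Slbp, 0.30 for Rpa3, 0.36 for Mcm6 and 0.44 for Dut. Only Cdc6 had both such arrays below both others, where 23.1% of all genes did, and this count ranged from 0 to 4 with other processing. The floors of the JAK2V617F and double mutant arrays (0.108 and 0.109) are below those of WT and TET2KD (0.124 and 0.145), which places genes at the floor in that direction. Over probes above background on all 4 arrays, the shares of all genes were 18.9% above and 20.4% below, and 15 of 38 replication genes were above.

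**Figure D3:**
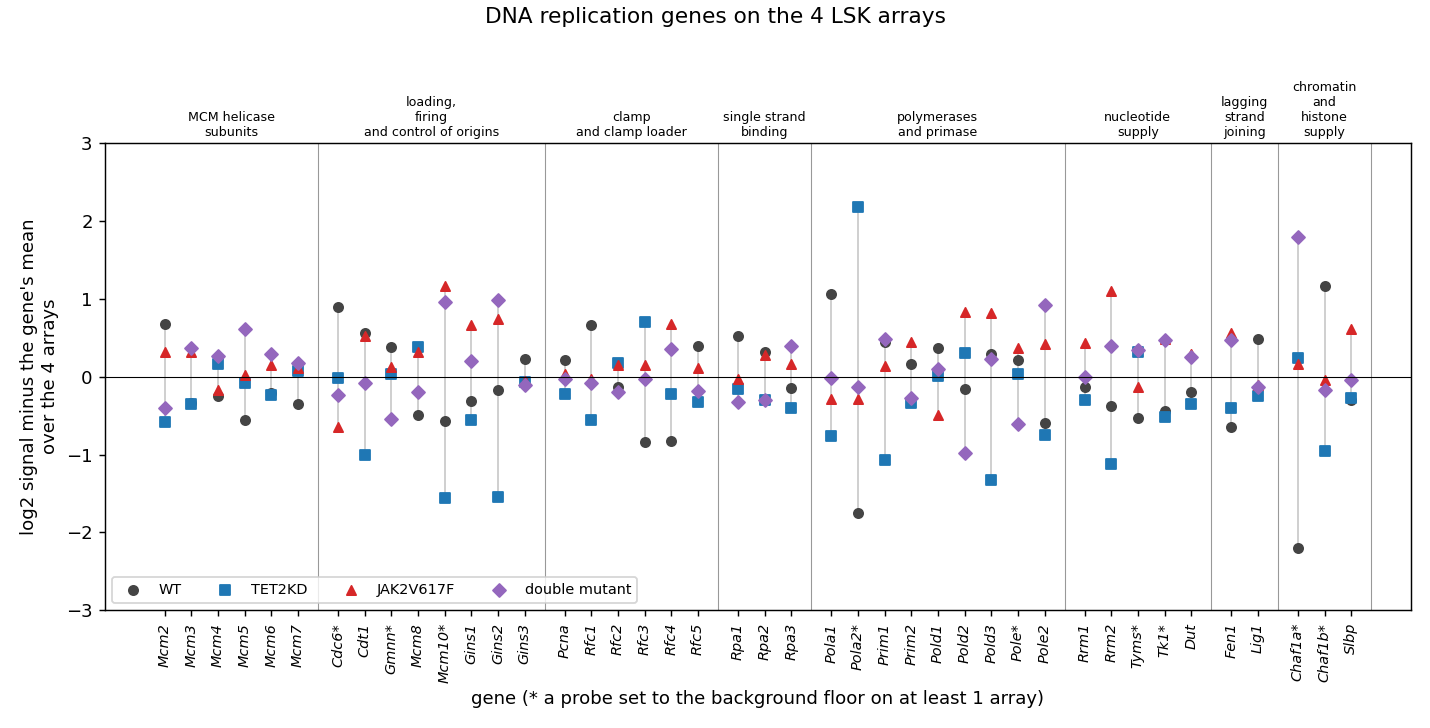
Log2 signal of each of the 42 replication genes on each array, minus the mean of that gene over the 4 arrays, in order of role; an asterisk marks a gene with a probe set to the background floor. JAK2V617F (triangles) and the double mutant (diamonds) lie above WT (circles) and TET2KD (squares) on 16 genes, of which 4 are MCM subunits and 4 serve the nucleotide supply.

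The MCM subunits form the ring-shaped helicase, and 5 of the 6 were higher than WT on the JAK2V617F array and 5 of 6 on the double mutant array. Among all genes 49.4% were higher in either comparison. In JAK2V617F, the differences of Mcm4 (1.06-fold) and Mcm6 (1.29-fold) were within spot error. Mcm6 had a scaled signal of 66.5 in WT, 65.3 with TET2KD, 85.6 with JAK2V617F and 94.1 with both, so the arrays without the transgene sat together and those with it stood 1.29-fold and 1.41-fold above WT. Mcm3 was split in the same way, with 7.11, 6.99, 11.2 and 11.6 in the same order. Its probes start 17 bases apart and gave 1.44-fold and 1.71-fold higher signal in JAK2V617F than in WT.

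Mcm5 and Mcm7 were lowest in WT. Mcm5 had 3.22 in WT, 4.49 with TET2KD, 4.85 with JAK2V617F and 7.29 with both, the last 2.27-fold above WT and outside the other arrays by 1.5-fold or more. Mcm7 had 34.2, 46.0, 47.1 and 49.3, so the 3 mutant arrays lay within 1.07-fold of each other and above WT. Its place among the 16 genes rests on differences within spot error and was lost with quantile normalization. For Mcm4 the high arrays were those with the knock-down, at 44.4 in TET2KD and 47.6 in the double mutant, against 33.3 in WT and 35.3 in JAK2V617F. Mcm2 went the other way, with 3.31 in WT, 1.38 with TET2KD, 2.59 with JAK2V617F and 1.57 with both, low on both arrays with the knock-down. The subunits of this one ring thus did not move as a block on these arrays.

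The promoters of Mcm5, Mcm6 and Mcm7, whose JAK2V617F-carrying arrays were both above the others, and of Cdc6, for which they were both below, are shown because all of them hold a sequence that E2F factors are known to bind. Each is the 250 bases before the gene's start in RefSeq (GRCm38.p6), 5′ to 3′ on the strand of the gene, with matches to the E2F letters on either strand in capitals. The stretches are chr8:75109259-75109508 (plus strand) for Mcm5, chr1:128359706-128359955 (minus strand) for Mcm6, chr5:138171884-138172133 (minus strand) for Mcm7 and chr11:98907901-98908150 (plus strand) for Cdc6.
Mcm5: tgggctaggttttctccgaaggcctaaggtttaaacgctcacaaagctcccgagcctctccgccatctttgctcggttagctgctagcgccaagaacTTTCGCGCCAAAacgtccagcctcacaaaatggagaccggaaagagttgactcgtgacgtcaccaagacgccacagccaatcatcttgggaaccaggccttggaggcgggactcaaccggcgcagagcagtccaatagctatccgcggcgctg
Mcm6: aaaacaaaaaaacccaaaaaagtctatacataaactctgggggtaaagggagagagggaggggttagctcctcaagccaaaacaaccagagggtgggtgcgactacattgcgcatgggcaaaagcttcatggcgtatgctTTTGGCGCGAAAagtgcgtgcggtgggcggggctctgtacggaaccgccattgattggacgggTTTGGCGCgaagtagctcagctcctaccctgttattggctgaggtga
Mcm7: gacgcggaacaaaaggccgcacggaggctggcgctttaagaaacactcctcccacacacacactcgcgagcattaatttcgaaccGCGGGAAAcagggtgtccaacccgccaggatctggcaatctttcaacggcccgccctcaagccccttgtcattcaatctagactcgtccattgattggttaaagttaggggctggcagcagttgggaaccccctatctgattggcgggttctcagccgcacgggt
Cdc6: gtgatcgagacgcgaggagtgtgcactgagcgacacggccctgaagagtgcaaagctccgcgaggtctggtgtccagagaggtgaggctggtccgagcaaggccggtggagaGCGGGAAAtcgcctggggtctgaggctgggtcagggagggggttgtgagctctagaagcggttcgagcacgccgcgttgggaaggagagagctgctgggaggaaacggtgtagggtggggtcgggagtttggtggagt
The search covered 250 bases before to 50 after each start, both strands, for TTTCGCGC, TTTGGCGC, TTTCCCGC and TTTGCCGC. RefSeq's promoter table held 35 of the 42 genes, with 40 promoters, of which 14 (35.0%) had a match, against 744 of 32851 promoters of all genes (2.26%). The CCAAT box (CCAAT), bound by NF-Y, was in 22 of the 40 (55.0%), against 37.4% of all promoters, and the CHR element (TTTGAA), known from genes of later cell cycle phases, in 4 (10.0%), against 17.9%. Of the 14 genes with a match, 5 had both JAK2V617F-carrying arrays above both others, and of the 21 without one, 9 did. Among all genes 16.2% did. Whether the E2F letters go with the split of the arrays was not tested. E2F matches of opposite strands overlap in Mcm5 and Mcm6, and 1 E2F match overlaps a CCAAT box, in Mcm7, after the start. A match describes the letters only, and no match says only that they are not in this window.

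Genes that load, fire and control origins differed among themselves. Mcm10, which helps to activate the loaded helicase, had 0.339 in WT and was not well above background in TET2KD, where its own signal was 0.171. It had 1.13 in JAK2V617F and 0.981 in the double mutant, 3.33-fold and 2.89-fold above WT, and the double mutant was at least 5.74-fold above TET2KD. Its JAK2V617F-carrying arrays thus stood well apart from the others, on 1 probe.

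The GINS complex is a part of the moving helicase, and 2 of its 4 subunits were higher on both arrays with the transgene. Gins2 had 2.74 in WT, 1.06 with TET2KD, 5.15 with JAK2V617F and 6.09 with both, which is 5.77-fold between the double mutant and TET2KD and 1.88-fold between JAK2V617F and WT. Gins1 had 1.39, 1.17, 2.74 and 2.0 in the same order. Gins3 was even over the arrays, with 37.8, 30.6, 31.2 and 30.0. Gins4, the remaining subunit and not in the set, was 1.13-fold higher in JAK2V617F than in WT and 1.05-fold higher in the double mutant than in TET2KD, but 1.56-fold lower in the double mutant than in WT. Gins2 is shown by its probe, as it has the widest gene-level difference between 2 arrays that both measured it in the 5 comparisons, at chr8:123112627-123112686 (mm9, minus strand).
Gins2 probe: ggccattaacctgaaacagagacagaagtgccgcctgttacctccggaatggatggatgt
Gins2 is read by this probe alone, so no other part of its transcript speaks to the difference.

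The loading factors and their inhibitor were not higher in JAK2V617F than in WT. Cdt1, which brings MCM rings to origins, had 6.75 in WT, 2.29 with TET2KD, 6.58 with JAK2V617F and 4.35 with both, low on both arrays with the knock-down, 2.94-fold lower in TET2KD than in WT and 1.89-fold higher in the double mutant than in TET2KD. Gmnn, the geminin that blocks Cdt1, was read by 1 probe above background on all arrays, which was 2.71-fold lower than WT in TET2KD, 1.31-fold lower in JAK2V617F and 3.17-fold lower in the double mutant. Its other probe, on the opposite strand by the file's coordinates and 10291 bases away, was above background in TET2KD only.

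Cdc6, the other loading factor, had its low JAK2V617F-carrying arrays from floors in part. Its probe above background on all arrays was 1.80-fold lower in JAK2V617F than in WT and within 1.05-fold of WT in TET2KD and in the double mutant. The other was above background in WT only, where it was at least 3.51-fold above TET2KD, 4.71-fold above JAK2V617F and 4.64-fold above the double mutant. Mcm8, a relative of the MCM subunits that serves recombination, had 0.238 in WT, 0.435 with TET2KD, 0.416 with JAK2V617F and 0.290 with both.

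The clamp and most subunits of its loader were steady or lower in the mutants. Pcna had 21.3 in WT, 15.9 with TET2KD, 19.0 with JAK2V617F and 18.2 with both, all within the range of spot error between any 2 arrays. Rfc1, the large subunit of the loader, had 10.2, 4.34, 6.27 and 6.05, highest in WT and 2.35-fold lower in TET2KD. Rfc5 was also highest in WT, with 6.27 against 3.83 to 5.16 in the mutants, and Rfc2 stayed between 7.30 and 9.42 on the 4 arrays.

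Rfc3 and Rfc4 were lowest in WT. Rfc3 had 0.352 in WT, 1.02 with TET2KD, 0.697 with JAK2V617F and 0.615 with both, 2.90-fold higher in TET2KD. Rfc4 averaged 0.531, 0.807, 1.5 and 1.20. Its 2 probes lie 6958 bases apart and agreed on JAK2V617F against WT (2.95-fold and 2.71-fold higher) but not on the double mutant against WT, where one gave 4.05-fold and the other 1.27-fold.

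RPA coats single-stranded DNA, and its 3 subunits went different ways. Rpa3, the smallest, had 4.30 in WT, 3.6 with TET2KD, 5.31 with JAK2V617F and 6.23 with both, higher on the arrays with the transgene. Rpa2 had 3.74, 2.43, 3.65 and 2.44, low on both arrays with the knock-down. Rpa1 cannot be given 1 pattern, since its 2 probes start 162 bases apart and were opposite: the double mutant was 2.05-fold above TET2KD on one and 2.59-fold below it on the other.

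The polymerase and primase genes held 1 of 9 (11.1%) with both JAK2V617F-carrying arrays above both others, near the 16.2% of all genes. That gene was Pole2, a subunit of polymerase epsilon, which had 0.517 in WT, 0.466 with TET2KD, 1.05 with JAK2V617F and 1.47 with both, 2.03-fold higher in JAK2V617F than in WT and 3.16-fold higher in the double mutant than in TET2KD. Pole itself, the catalytic subunit, had 3 probes that differed: against WT, JAK2V617F was at least 3.37-fold higher on one, 7.12-fold lower on the next and 2.93-fold higher on the third. Its average over the probes enters the counts and medians over the 42 genes, and no gene-level value of Pole is given for itself.

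The priming complex was low in TET2KD for 3 of its 4 genes. Pola1, the catalytic subunit of polymerase alpha, had 2.83 in WT, 0.802 with TET2KD, 1.12 with JAK2V617F and 1.34 with both, 2.11-fold to 3.53-fold lower in the mutants than in WT. Prim1, the primase, had 2.46, 0.861, 1.99 and 2.53, low in TET2KD alone. Prim2, its partner, averaged 3.52, 2.50, 4.33 and 2.61, but the TET2KD difference came from 1 probe (2.12-fold lower), while the other was 1.07-fold higher. The first had 0.857, 0.405, 1.31 and 0.546. The other, which starts 25179 bases away, was far brighter and nearly flat, with 14.5, 15.4, 14.3 and 12.5. Whether both read the same transcript was not tested, so the average of Prim2 is uncertain.

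Pola2, the regulatory subunit of polymerase alpha, was the exception. It was not above background in WT, at the floor of 0.124, and had 1.90 with TET2KD, 0.344 with JAK2V617F and 0.383 with both. TET2KD was thus at least 15.3-fold above WT, and the double mutant 4.97-fold below TET2KD. Its 1 probe put this partner of Pola1 high on the array where Pola1 was low.

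Of the polymerase delta subunits, Pold1, the catalytic one, had 8.56 in WT, 6.67 with TET2KD, 4.73 with JAK2V617F and 7.13 with both. Pold3 had 0.900, 0.293, 1.30 and 0.865, low in TET2KD by 3.07-fold against WT. Pold2 had 1.84, 2.53, 3.64 and 1.03, high in JAK2V617F and 3.52-fold lower in the double mutant than there. The 3 subunits each had their lowest value on a different array.

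Of the 5 nucleotide supply genes, 5 were above WT in JAK2V617F, where 49.4% of all genes were, Tyms with WT at the floor. In the double mutant 5 were above TET2KD, where 51.1% of all genes were, Tyms by 1.02-fold. Of 13 other nucleotide supply genes compared, 11 were higher and 2 lower in the first comparison and 5 higher and 8 lower in the second (medians 0.57 and -0.03). Rrm2, the small subunit of ribonucleotide reductase that is made in S phase, had 4.97 in WT, 2.98 with TET2KD, 13.9 with JAK2V617F and 8.48 with both, 2.79-fold and 2.85-fold higher in these disjoint comparisons. Rrm1, the large subunit, had 6.31, 5.65, 9.37 and 6.93. Dut, which removes dUTP, had 14.6, 13.2, 20.6 and 19.9 on its 1 probe above background, so that the groups did not overlap by genotype.

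Tk1, the thymidine kinase of S phase, averaged 0.732 in WT, 0.695 with TET2KD, 1.39 with JAK2V617F and 1.37 with both. Its probes above background on all arrays were 2.84-fold and 2.78-fold higher in JAK2V617F than in WT, but the double mutant was 3.0-fold above TET2KD on one and 1.01-fold below it on the other. A further Tk1 probe was above background in the double mutant only and enters the average at the floor on the other arrays. It put the double mutant at least 3.49-fold above JAK2V617F, while the other probes put it 2.2-fold and 1.65-fold below. Tyms, the thymidylate synthase, was at the floor of 0.124 in WT and had 0.223 with TET2KD, 0.163 with JAK2V617F and 0.227 with both, at least 1.32-fold to 1.83-fold above WT. These are levels close to background.

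The genes that finish lagging strand fragments split. Fen1, the nuclease that trims flaps, had 1.88 in WT, 2.22 with TET2KD, 4.36 with JAK2V617F and 4.08 with both, 2.32-fold above WT in JAK2V617F and 1.84-fold above TET2KD in the double mutant. Lig1, the ligase that then joins the fragments, had 37.6, 22.6, 25 and 24.4, highest in WT and level over the mutants.

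The genes of chromatin and histone supply went both ways from WT. Chaf1a, the large subunit of the histone chaperone CAF-1, was at the floor of 0.124 in WT and had 0.680 with TET2KD, 0.643 with JAK2V617F and 1.99 with both, at least 5.48-fold, 5.18-fold and 16.0-fold above WT. Chaf1b, its partner, was highest in WT. Its 2 probes above background on all arrays were 4.44-fold and 4.41-fold lower than WT in TET2KD, 1.5-fold and 1.46-fold lower in JAK2V617F and 1.56-fold and 1.88-fold lower in the double mutant. These subunits of 1 complex therefore stood on opposite sides of WT in every mutant.

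Slbp, which binds the stem-loop of histone mRNA, averaged 2.24 in WT, 2.29 with TET2KD, 4.19 with JAK2V617F and 2.66 with both. Its 2 probes, 3599 bases apart, gave 1.93-fold and 1.81-fold higher signal in JAK2V617F than in WT and 1.19-fold and 1.18-fold in the double mutant. They are shown as an example of distant stretches of 1 transcript that agree, at chr5:33984551-33984610 and chr5:33988150-33988209 (mm9, minus strand).
Slbp probe 1: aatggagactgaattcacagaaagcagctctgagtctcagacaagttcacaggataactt
Slbp probe 2: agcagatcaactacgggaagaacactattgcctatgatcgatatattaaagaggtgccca
Such agreement was not general. Over the pairs of probes of 1 gene whose starts were under 200 bases apart, the median gap between their log2 differences was 0.03 to 0.32 in the 5 comparisons (3 pairs). Over pairs at least 200 bases apart it was 0.72 to 1.40 (8 to 10 pairs). The widest gap of a close pair was 2.41, for Rpa1 in the double mutant against TET2KD. Some distant pairs hold a probe set to the floor, and the part of distance in these gaps was not tested. Probes of Gmnn, Rfc4, Rpa1, Prim2, Pole and Tk1 went opposite ways by a gap of 2-fold or more in at least 1 comparison.

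**Figure D4:**
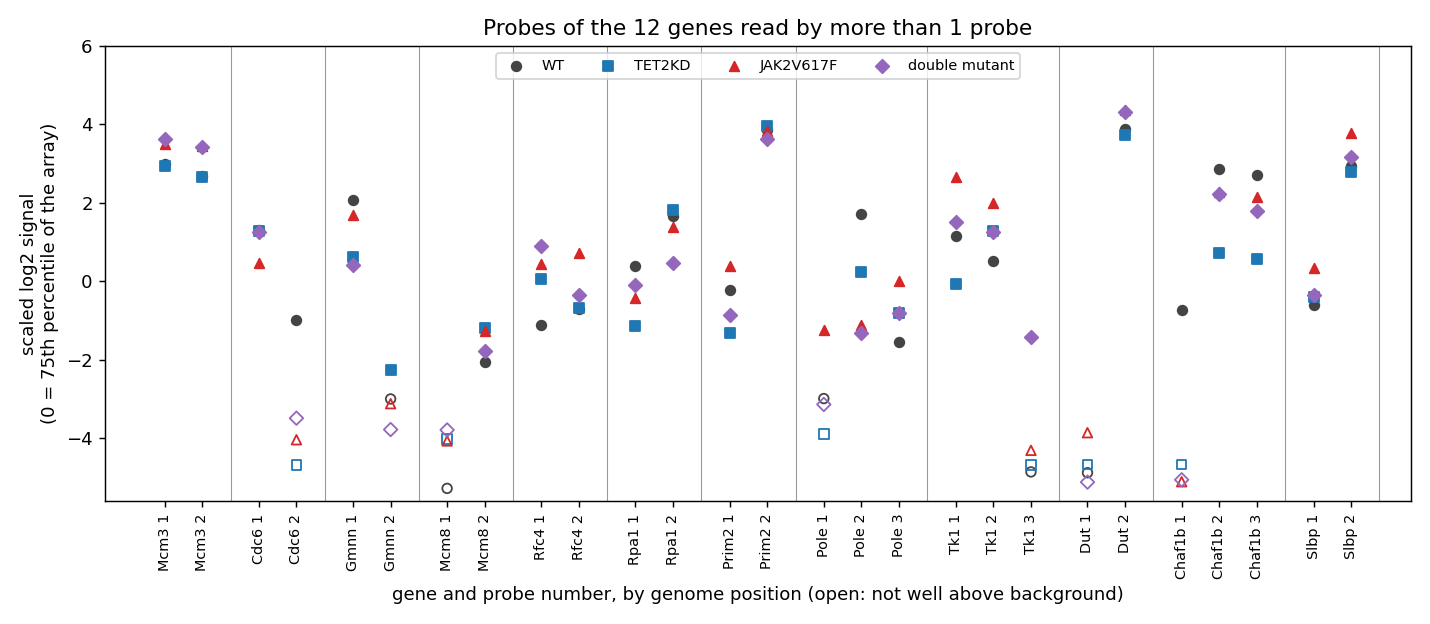
Scaled log2 signal (0 is the 75th percentile of the array) of each probe of the 12 genes read by more than 1 probe, on the 4 arrays; open symbols are not well above background. The probes of Slbp and of Mcm3 keep the same highest or lowest arrays, while those of Pole and Rpa1 do not.

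In limma, 16086 genes were fitted with 1 term for each lesion and no interaction, which leaves 1 residual degree of freedom a gene and borrows the spread from all genes. No gene passed an adjusted p of 0.05 for either effect (limma, Benjamini-Hochberg), and 1123 genes (6.98%) had an unadjusted p under 0.05 for JAK2V617F and 746 (4.64%) for TET2KD. Of the 42 genes, 6 (14.3%) had one for JAK2V617F, all higher: Rrm2, Gins2, Mcm10, Chaf1a, Mcm6 and Fen1. Chaf1a was not above background in WT, and Mcm10 not well above it in TET2KD. Rrm2 had a log2 effect of 1.5 with SE 0.34 and an adjusted p of 0.524 in limma. For TET2KD there were 2, Chaf1a higher and Cdt1 lower, with a smallest adjusted p of 0.945 in limma.

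A further list of 87 genes of the same pathways, which are not in the set, gives its setting. In JAK2V617F against WT, 83 could be compared, and the counts past 2-fold were 20 higher and 6 lower (median 0.26). Among all genes the shares were 15.5% and 15.7%. In the double mutant against TET2KD the counts were 21 and 8 (median 0.29), against 15.8% and 15.5% of all genes. In TET2KD against WT they were 10 and 17 of 79 (median -0.03), against 15.9% and 17.5%. Both arrays with the transgene were above both others for 27 of 83 (32.5%), against 16.2% of all genes. Among the 27, named after their values were seen, were Orc1, the origin recognition subunit, Dbf4 and Cdc7, the kinase that fires origins, E2f1 and E2f2, and Dnmt1, the maintenance DNA methyltransferase.

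The widest differences of that list did not all recur between the disjoint comparisons. Ctps, which makes CTP, was 10.9-fold higher in JAK2V617F than in WT and 3.12-fold higher in the double mutant than in TET2KD. Wdhd1, which ties polymerase alpha to the helicase, was 9.95-fold higher in the first and 2.16-fold lower in the second, and Skp2, a ligase subunit that marks Cdt1 and p27 for breakdown, 5.65-fold higher and 2.68-fold lower. E2f2 was 7.24-fold higher in the double mutant than in TET2KD and 1.10-fold higher in JAK2V617F than in WT. On the lower side, Rbl2, a pocket protein that holds E2F targets down, was 3.14-fold lower in JAK2V617F than in WT and 1.82-fold higher in the double mutant than in TET2KD. Dna2, a nuclease of lagging strands, was at least 2.82-fold lower in the first and 3.54-fold lower, in part by a floor, in the second.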

How the data were processed

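LSK cell RNA of 4 genotypes, with 1 sample each, was amplified (Ovation Pico WTA), labelled with Cy3 and hybridised to 1-colour Agilent mouse arrays, per the labels' protocols. The deposited intensity of a spot is, per the file headers, its mean signal less a spatial background surface, detrended by Agilent Feature Extraction 10.7.3.1 and not scaled between arrays, and the deposited quality flags say whether a spot is well above background. The deposited series matrix holds log2 values, which equalled the log2 intensity shifted by 1 constant an array (0 probes with a single spot were off by more than 0.001; column medians -2.64 for WT, -2.63 for TET2KD and -2.60 for the other arrays), so its scale and direction are settled and it is not centred by gene. There was 1 slide and 1 scan for the 4 arrays. Probe coordinates are mm9, per the file headers; whether a probe lies in an exon, intron or UTR was not annotated here.

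Signals were taken to log2 and each array's 75th percentile was subtracted. Outlier spots (162 to 199 an array) were dropped and no spot was saturated. Spots of a probe, then probes of a gene, were averaged. Probes were named by accession (28026), symbol (3418) or synonym (295) through a RefSeq table of GRCm38.p6, and 23942 stayed without a gene. The floor for dim sides is described with the results. Comparisons of 2 arrays carry no p-value. The number of arrays limits the precision. The additive model used limma 3.58.1 (lmFit and eBayes) in R 4.3.3 with Benjamini-Hochberg adjustment over all genes fitted. Tables were made with Python 3.11.15, pandas 2.3.3 and numpy 2.4.6. The steps were also run on simulated arrays with WT levels, spot error and planted differences. These arrays had no spread between animals, sorts or amplifications, so that run does not speak to such spread.

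The members and all gene lists (87 other replication genes and the marker lists) were chosen with earlier results of these data known. Every member could be named. Full values went to the MCM subunits, up to 5 members with the widest difference each way in each comparison, up to 6 each way between arrays with and without JAK2V617F, and members with opposite probes; from the other list, up to 3 each way in the 2 comparisons of JAK2V617F arrays that share none. Other members are given by their levels.

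Results were recomputed with normexp (offset 50), with quantile normalization, from probes above background on every array compared, from all probes without a filter or floor, from the brightest probe of a gene, and from the series matrix. The summed levels of the remaining marker lists, in the order WT, TET2KD, JAK2V617F and double mutant, were 66.0, 97.8, 21.9 and 67.8 for mature neutrophil genes (10 of 11 above background on any array), 23.1, 40.2, 10.3 and 19.3 for erythroid genes (11 of 13), 7.48, 3.21, 2.47 and 1.99 for B cell genes (7 of 10), 57.4, 49.7, 49.7 and 36.4 for the gate genes and 9.22, 10.3, 7.77 and 8.56 for lineage genes absent from the gate (4 of 7).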

Additional observations from a re-analysis of the deposited data

Results flagged for a closer look

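Pola2 and Chaf1b differed at least 2-fold in opposite directions between JAK2V617F and WT and between the double mutant and TET2KD. With 1 array a genotype the difference between these effects was not tested. Pola2, the regulatory subunit of polymerase alpha, had a log2 difference of 1.47 without the knock-down, where the WT side is at the background floor, and of -2.31 with it. Its level was highest on the TET2KD array. Chaf1b, a subunit of the histone chaperone CAF-1, had -1.21 and 1.37. The first of these averages a probe that was above background in WT only with 2 probes measured on all arrays, which gave -0.59 and -0.55 alone and 1.51 and 1.23 in the second comparison.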

How the results depend on the processing

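The 5 medians of the replication genes kept their sign under the 6 alternatives. They ranged from -0.30 to -0.20 for TET2KD, 0.26 to 0.41 for JAK2V617F and 0.04 to 0.21 for the double mutant against WT, the lowest with only measured probes, and from -0.14 to -0.03 and 0.22 to 0.34 for the double mutant against JAK2V617F and TET2KD. The count of genes with both JAK2V617F-carrying arrays above both others was 15 or 16 throughout; quantile normalization left out Mcm7, and the restriction to measured probes left 38 genes, without Mcm10. Genes higher in both disjoint JAK2V617F comparisons numbered 18 to 21. Counts past 2-fold were less stable. Normexp with its offset compresses low signals, and gave 1 gene higher in TET2KD than in WT (3 in the main setting), 3 higher and 1 lower in JAK2V617F than in WT (8 and 3), 3 higher and 1 lower in the double mutant than in WT (8 and 6) and 1 lower in the double mutant than in TET2KD (2). Only measured probes gave 1 higher in TET2KD than in WT and 1 lower in JAK2V617F than in WT. Without a filter, 5 were higher in TET2KD than in WT and 1 was lower in the double mutant than in JAK2V617F (2 in the main setting), and this setting moved the median of all genes to 0.11 for TET2KD and to -0.18 for JAK2V617F against WT. The brightest probe gave 4 lower in the double mutant than in TET2KD. Genes with both JAK2V617F-carrying arrays below both others (1) numbered 2 with normexp, quantile normalization or only measured probes, 0 without a filter or with the series matrix values, and 4 with the brightest probe; the cause was not tested. Single genes were followed only where they differed at least 2-fold in the main setting. Of 287 such values under an alternative, 225 moved by less than 1 SD of the spot error between 2 arrays. This limit is narrower than the 95% range used elsewhere. The other 62 moved by more, and 0 changed sign. Whether smaller differences of single genes kept their sign was not examined. In every setting limma called 0 genes after Benjamini-Hochberg adjustment, with 980 to 1754 genes and 3 to 8 replication genes at an unadjusted p under 0.05 for JAK2V617F. No paired analysis was possible because each genotype has 1 array and the labels give no replicate numbers. Leaving out an array leaves the additive model with no residual degree of freedom, so it has no such value.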
